A study of Chelonus formosanus with 6 samples.

Results

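The unigenes of glycolysis and the citrate cycle were followed in heads of the braconid wasp Chelonus formosanus, in 3 libraries from females and 3 libraries from males, all labelled day 1. A unigene is a cluster of assembled transcripts that stands for a gene, since no genome was used. The labels name no genotype, treatment or mating state, and they do not say whether a library held heads of separate animals or of a pool. Every p-value below therefore speaks of the scatter among these libraries, part of which may be technical. The study was set up to choose reference genes for quantitative PCR, and GAPDH is such a candidate. Members were the unigenes whose KEGG pathway field named glycolysis or the citrate cycle and whose best protein hit came from an insect, without those also placed in starch and sucrose metabolism and without CoA ligases and synthetases named as such. This gave 65 of 41986 unigenes, 36 of glycolysis and 37 of the citrate cycle with 8 in both. Hexokinase, phosphoglucose isomerase, phosphoglucomutase and succinyl-CoA ligase lie outside the members because of the rule, not because of their levels.

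Glycolysis splits glucose into pyruvate in the cytosol and makes a small yield of ATP and NADH on the way. The pyruvate dehydrogenase complex then turns pyruvate into acetyl-CoA inside mitochondria, and the citrate cycle oxidises it, passing electrons to the respiratory chain. In insects these steps supply flight muscle, brain and photoreceptors, and gluconeogenic enzymes act mainly in the fat body, the insect counterpart of liver and adipose tissue.

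By role, 40 members belonged to the core steps, which are glycolysis, gluconeogenesis, lactate formation, pyruvate dehydrogenase and the citrate cycle. Another 20 were side enzymes that the pathway maps include, such as aldehyde and alcohol dehydrogenases and the cytosolic partners of citrate cycle enzymes. The remaining 5 carried an enzyme identifier while their best hit or protein domains named another protein, 2 of them retrotransposon integrases, and they are kept apart as other proteins. Lengths ran from 234 to 5903 bases, and 35 best hits came from Microplitis and 8 from Cotesia, both braconid genera. The members took between 2.18% and 2.66% of the 17937390 to 19517887 counts of a library. The filter on low counts removed 5 members of 234 to 644 bases with 32 to 58 counts over the 6 libraries, all of them short pieces of 2-oxoglutarate dehydrogenase, succinate dehydrogenase or acetyl-CoA synthetase, and 60 were tested.

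The tested members lay mostly below male levels in female heads, by small amounts. Of 60 tested members, 3 were lower in females, where 1.11% of the 21196 unigenes tested were, and 2 were higher, where 1.69% of all tested unigenes were (edgeR's quasi-likelihood test of female minus male, adjusted p under 0.05). The other 55 did not pass. The 3 lower members were all mitochondrial citrate cycle enzymes, namely the alpha subunit of NAD isocitrate dehydrogenase, the E2 component of 2-oxoglutarate dehydrogenase and fumarase. Higher were an NADP alcohol dehydrogenase and 1 of the other proteins. DESeq2's Wald test called 9 members lower and 3 higher, against 1.96% and 2.51% of all unigenes it tested. The count of lower members depended on the library left out: it was 0 without female 2, female 3 or male 1, 1 without male 2, 3 without male 3, and 6 without female 1.

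The direction was shared more widely than the calls. The log2 difference, female minus male, was below 0 for 42 of the 60 tested members, against 50.0% of all unigenes tested, and its median was -0.17 for the members and -0.00 for all. At an unadjusted p under 0.05, 20 members were lower and 4 higher in females, against 5.71% and 6.29% of all tested unigenes. In 21 tested members all females lay below all males, against 8.5% of all tested unigenes, and in 6 all females lay above, against 8.77%. The rule asked for an insect best hit. Of the 9564 tested unigenes with such a hit, 54.6% lay below 0, with 12.3% having all females below all males and 11.6% above. Of these unigenes 17.8% had an unadjusted p under 0.05 by edgeR in either direction, against 40% of the tested members. Well-counted unigenes separate more often, so the share was also taken at a mean of at least 50 CPM, that is, counts scaled to library size. There 19 of 45 members (42.2%) had all females below all males, against 15.4% of all unigenes at that level. Below 0 lay 34 of these 45 members (75.6%), against 57.5% of all unigenes at that level. Of the 36 core members tested, 30 lay below 0 with a median of -0.19, and 18 had all females below all males. The 19 side enzymes tested had a median of -0.03, with 11 below 0. On the deposited TPM scale, the authors' length-corrected share of a library, the median of all tested unigenes moved to 0.11 and that of the members to -0.05, which is -0.16 relative to all. On that scale 36 of the 60 members lay below 0, among them 28 of the 36 core members and 7 of the 19 side enzymes, whose median was then 0.08, and 42, 30 and 11 lay below the median of all. Counts of members with all females below or above all males are in CPM throughout and were not taken in TPM. Some of these members overlapped between the sexes in TPM, among them the beta and gamma subunits of NAD isocitrate dehydrogenase. A single unigene (TRINITY_DN22978_c0_g1) took 0.816% to 0.981% of TPM in females and 5.44% to 5.81% in males. TPM sets every unigene against a total that includes it. Its part in the shift of the medians was not tested.

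**Figure D1:**
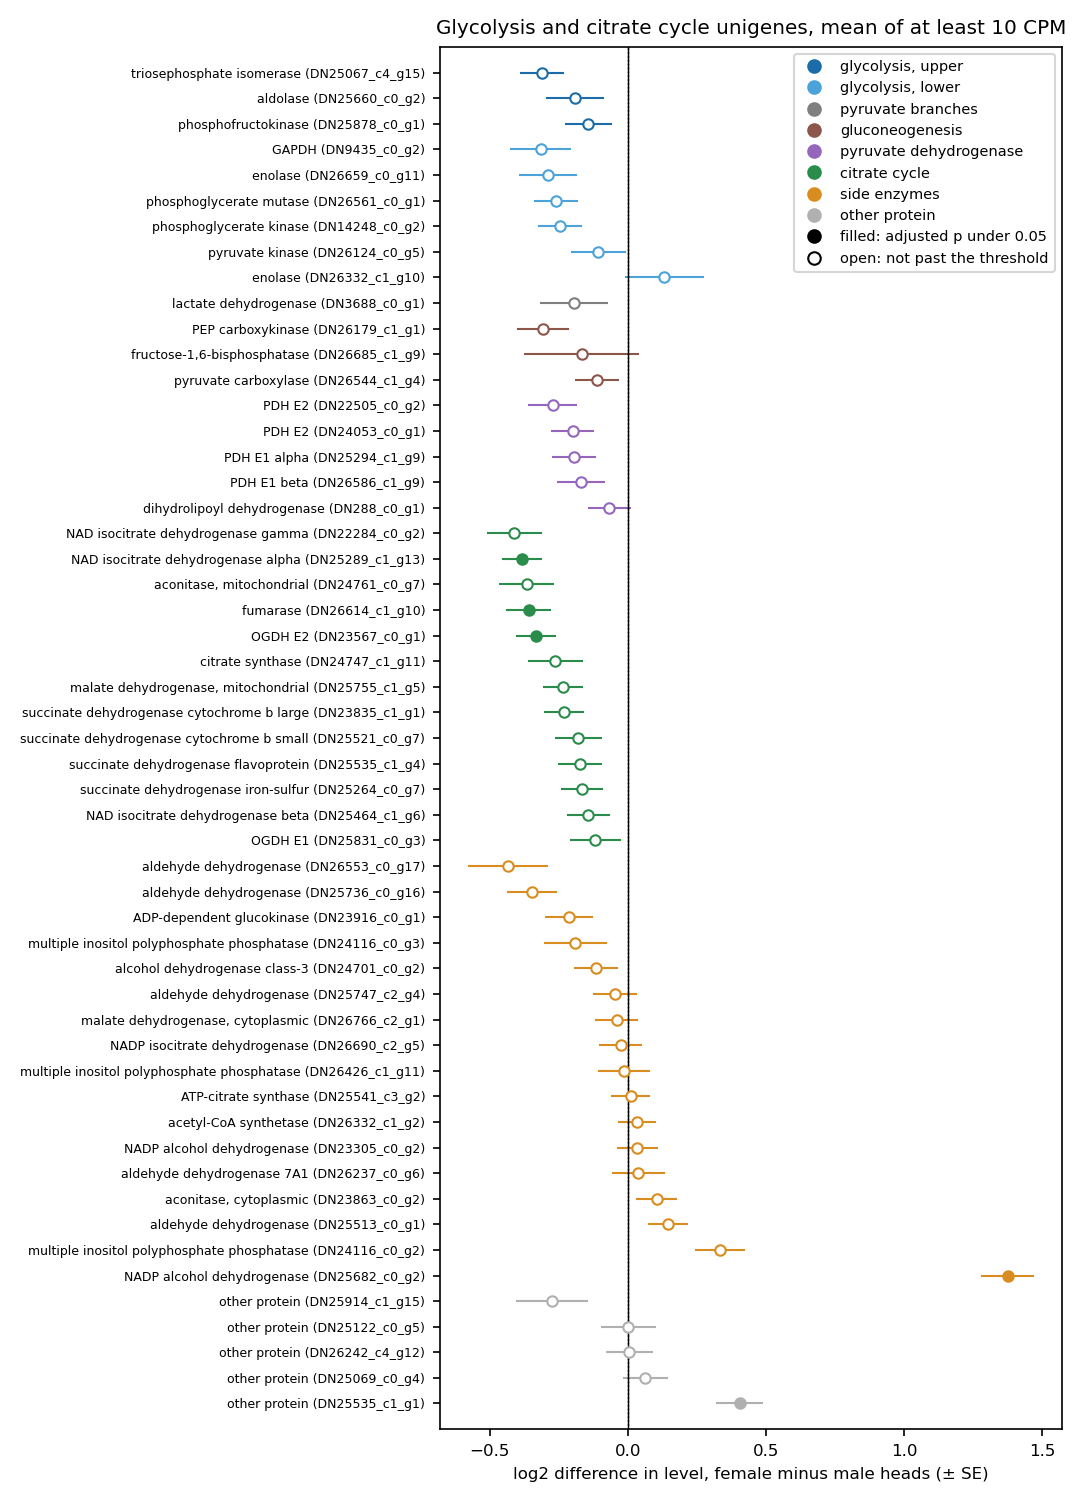
Log2 difference in level, female minus male heads, with its SE, for each member with a mean of at least 10 CPM, from edgeR on 3 libraries per sex; rows are ordered by role and named by enzyme and unigene, the solid line marks 0 and the dotted line the median of all unigenes tested. Points of the core steps sit left of 0 except for the second enolase unigene at 0.13, side enzymes scatter on both sides, and the NADP alcohol dehydrogenase at 1.37 stands apart on the right, while in deposited TPM 28 of the 31 core members drawn lay below 0.

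In upper glycolysis, 3 unigenes were measured and none passed edgeR's adjusted test, 1 had an unadjusted p under 0.05, and DESeq2 called 1 lower. Over all tested unigenes, 5.71% were lower at an unadjusted p under 0.05 by edgeR, and DESeq2 called 1.96% lower. Triosephosphate isomerase, which interconverts the triose phosphates (DN25067_c4_g15; unigene names are given without their TRINITY prefix), had 480.4, 459.6 and 431 CPM in females 1 to 3, against 546, 556 and 597 CPM in males 1 to 3. Every female lay below every male, and the log2 difference was -0.31 ± 0.078 (SE, edgeR, adjusted p = 0.075). Aldolase, which splits fructose 1,6-bisphosphate (DN25660_c0_g2), had 2955, 2895 and 2549 CPM in females 1 to 3, against 3326, 2797 and 3476 CPM in males 1 to 3. Male 2 lay below females 1 and 2, and the log2 difference of -0.19 ± 0.11 did not pass (adjusted p = 0.548, edgeR). This unigene of 4085 bases carries aldolase as its Swiss-Prot name while its best hit names a king tubby protein, so its identity is uncertain. Phosphofructokinase, the main controlled step of glycolysis (DN25878_c0_g1), averaged 530.5 ± 25.7 CPM in female heads and 586 ± 48.4 CPM in male heads (SD over 3 libraries, as for every such pair) and overlapped between the sexes, with a log2 difference of -0.14 ± 0.085 (edgeR, adjusted p = 0.599).

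Lower glycolysis, from GAPDH to pyruvate, held the member of highest level, GAPDH 2. None of its 6 unigenes passed the adjusted test by edgeR or DESeq2. At an unadjusted p under 0.05 by edgeR, 4 were lower in females and none higher, against 5.71% and 6.29% of all tested unigenes. GAPDH 2, which makes 1,3-bisphosphoglycerate and NADH (DN9435_c0_g2, the only GAPDH unigene among the members, named by its Swiss-Prot match), had 4028, 3701 and 3278 CPM in females 1 to 3, against 4731, 4021 and 4944 CPM in males 1 to 3. Female 1 and male 2 lay close together, so the sexes overlapped, and the log2 difference was -0.32 ± 0.11 (edgeR, adjusted p = 0.238, unadjusted p = 0.0163). The authors' deposited table gives this unigene a log2 fold change of -0.31 with an FDR of 0.221 and does not mark it as significant. Phosphoglycerate kinase, which makes the first ATP of the pathway (DN14248_c0_g2), had 465, 469.8 and 439 CPM in females 1 to 3, against 540.2, 507 and 581 CPM in males 1 to 3. All females lay below all males, with a log2 difference of -0.24 ± 0.080 (edgeR, adjusted p = 0.195). Phosphoglycerate mutase, which moves the phosphate group (DN26561_c0_g1), averaged 567 ± 31.4 CPM in female heads and 678 ± 35.9 CPM in male heads without overlap (log2 difference -0.26 ± 0.080, edgeR, adjusted p = 0.164).

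Enolase, which forms phosphoenolpyruvate (DN26659_c0_g11), had 1946, 1773 and 1632 CPM in females 1 to 3, against 2248, 1917 and 2368 CPM in males 1 to 3. Male 2 lay below female 1, as for GAPDH 2, and the log2 difference was -0.29 ± 0.10 (edgeR, adjusted p = 0.263). A second enolase unigene (DN26332_c1_g10), named enolase-like by its best hit, had 21.4, 17.4 and 22.3 CPM in females 1 to 3, against 16.1, 21.9 and 17.7 CPM in males 1 to 3, and the sexes overlapped. It carries the same cluster number as the acetyl-CoA synthetase unigenes, so its reads may be shared and its level is uncertain. Pyruvate kinase, which makes pyruvate and ATP (DN26124_c0_g5), averaged 1604 ± 109 CPM in female heads and 1726 ± 194 CPM in male heads, overlapped between the sexes and had a log2 difference of -0.11 ± 0.10 (edgeR, adjusted p = 0.778). Lactate dehydrogenase, which turns pyruvate into lactate (DN3688_c0_g1), was low, with 15.9 ± 0.889 CPM in female heads and 18.2 ± 2.45 CPM in male heads and 14.3 ± 0.937 TPM in females and 15.1 ± 1.68 TPM in males. Its log2 difference of -0.19 ± 0.12 did not pass (edgeR, adjusted p = 0.629).

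Levels of the core enzymes spanned a wide range per length. In TPM, GAPDH 2 was the highest member, with 3671 ± 364 TPM in females and 4244 ± 392 TPM in males. The unigene named aldolase (DN25660_c0_g2), of uncertain identity, followed with 2600 ± 303 TPM in females and 2793 ± 334 TPM in males. Then came enolase with 1094 ± 71.7 TPM in females and 1207 ± 94.9 TPM in males. Phosphoenolpyruvate carboxykinase, with 631 ± 35.0 TPM in females and 709 ± 56.5 TPM in males, and pyruvate kinase, with 639 ± 39.6 TPM in females and 637 ± 58.3 TPM in males, came next and lay within the spread of each other in females. Cytosolic malate dehydrogenase had 499.9 ± 7.87 TPM in females and 478 ± 19.8 TPM in males, and the E1 component of 2-oxoglutarate dehydrogenase, the highest citrate cycle enzyme, 441 ± 48.2 TPM in females and 445 ± 8.68 TPM in males. Phosphofructokinase was lower than these, with 138 ± 8.31 TPM in females and 143 ± 16.3 TPM in males. Lower glycolysis summed to 6141 ± 493 TPM in females and 6897 ± 567 TPM in males, and the citrate cycle to 2735 ± 186 TPM in females and 2990 ± 38.0 TPM in males.

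Among the 3 gluconeogenic enzymes none passed edgeR's adjusted test. At an unadjusted p under 0.05, 1 was lower, and DESeq2 called 1 lower, against 5.71% and 1.96% of all tested unigenes. Phosphoenolpyruvate carboxykinase, which commits oxaloacetate to glucose synthesis (DN26179_c1_g1), had 1265, 1277 and 1135 CPM in females 1 to 3, against 1483, 1389 and 1673 CPM in males 1 to 3. The sexes did not overlap, and the log2 difference was -0.31 ± 0.094 (edgeR, adjusted p = 0.163). Pyruvate carboxylase, which makes oxaloacetate from pyruvate (DN26544_c1_g4), averaged 232 ± 12.5 CPM in female heads and 251 ± 15.8 CPM in male heads, and male 3 lay below females 1 and 2. Fructose-1,6-bisphosphatase (DN26685_c1_g9), which reverses the phosphofructokinase step, had 27.9, 19.1 and 20.9 CPM in females 1 to 3, against 29.1, 29.9 and 17.1 CPM in males 1 to 3. Female 1 and male 3 were each nearer to the other sex than to their own, and the adjusted p was 0.845 (edgeR).

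The pyruvate dehydrogenase complex was represented by 5 unigenes, all with a log2 difference below 0 in CPM, from -0.27 to -0.07 (4 of 5 below 0 in deposited TPM), and none past the adjusted test by edgeR or DESeq2. In 3 of them the unadjusted p was under 0.05 and all females lay below all males in CPM. In deposited TPM the sexes overlapped in each of these 3. Among all tested unigenes, 5.71% were lower at that p by edgeR, and 8.5% had all females below all males. The acetyltransferase E2 (DN22505_c0_g2), which passes the acetyl group to coenzyme A, had 189, 178 and 157 CPM in females 1 to 3, against 215, 195 and 221 CPM in males 1 to 3, a log2 difference of -0.27 ± 0.089 (edgeR, adjusted p = 0.196). The decarboxylating E1 averaged 327 ± 21.4 CPM in female heads and 375 ± 18.9 CPM in male heads for the alpha subunit (DN25294_c1_g9), without overlap, and 189 ± 10.2 CPM in female heads and 213 ± 20.1 CPM in male heads for the beta subunit (DN26586_c1_g9), with overlap. Dihydrolipoyl dehydrogenase, the E3 that this complex shares with 2-oxoglutarate dehydrogenase (DN288_c0_g1), had 209, 197 and 193 CPM in females 1 to 3, against 193, 216 and 219 CPM in males 1 to 3. Its sexes overlapped, and its log2 difference was -0.07 ± 0.078 (edgeR, adjusted p = 0.829).

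The citrate cycle held all 3 members called lower. Of its 22 unigenes 18 were tested, 8 were lower and 1 higher at an unadjusted p under 0.05, and 11 had all females below all males. The shares of all tested unigenes were 5.71% lower and 6.29% higher at that p, and 8.5% with all females below. By edgeR's adjusted p, 1.11% of all were lower. The alpha subunit of NAD isocitrate dehydrogenase, which oxidises isocitrate and sets the pace of the cycle (DN25289_c1_g13), had 224, 225 and 222 CPM in females 1 to 3, against 306, 274 and 296 CPM in males 1 to 3. The females lay within a narrow band below every male, with a log2 difference of -0.38 ± 0.072 (edgeR, adjusted p = 0.0162), and the adjusted p was 0.0961 without female 2, 0.0536 without female 3 and 0.0721 without male 1. The gamma subunit (DN22284_c0_g2) had 199, 167 and 161 CPM in females 1 to 3, against 249.7, 210.4 and 241 CPM in males 1 to 3. Its difference of -0.41 ± 0.0996, the lowest of the cycle, did not pass (edgeR, adjusted p = 0.0621), and DESeq2 called it (adjusted p = 0.00455). The beta subunit (DN25464_c1_g6) averaged 259 ± 12.9 CPM in female heads and 286 ± 16.8 CPM in male heads, without overlap and with a log2 difference of -0.14 ± 0.078 (edgeR, adjusted p = 0.548).

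The succinyltransferase E2 of 2-oxoglutarate dehydrogenase, which makes succinyl-CoA (DN23567_c0_g1), had 169.9, 161 and 157 CPM in females 1 to 3, against 206, 211 and 198 CPM in males 1 to 3. The sexes were well apart, with a log2 difference of -0.33 ± 0.071 (edgeR, adjusted p = 0.0324). The call was lost without female 2 (adjusted p = 0.182), female 3 (0.101), male 1 (0.102) or male 2 (0.181), by edgeR. It was also lost with a replicate block (adjusted p = 0.0624) and with no filter on low counts (0.0591), by edgeR. The E1 of the same complex (DN25831_c0_g3) had 1896, 1592 and 1588 CPM in females 1 to 3, against 1856, 1776 and 1875 CPM in males 1 to 3, so that female 1 lay above every male, and its log2 difference was -0.12 ± 0.092 (edgeR, adjusted p = 0.719). Fumarase, which hydrates fumarate to malate (DN26614_c1_g10), had 62.6, 55.2 and 58.1 CPM in females 1 to 3, against 70.6, 80.3 and 74.4 CPM in males 1 to 3. The log2 difference was -0.36 ± 0.081 (edgeR, adjusted p = 0.0462), just inside the threshold. The call was lost without any 1 of female 2, female 3, male 1, male 2 or male 3, with adjusted p between 0.0647 and 0.262 by edgeR. It was also lost with a replicate block (adjusted p = 0.103) and with no filter on low counts (0.0953), by edgeR.

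The authors' deposited table marks none of these 3 enzymes as significant, with an FDR of 0.0159 for NAD isocitrate dehydrogenase alpha (DN25289_c1_g13), 0.0617 for the E2 (DN23567_c0_g1) and 0.0610 for fumarase (DN26614_c1_g10). Among the members it marks only the NADP alcohol dehydrogenase described below.

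Mitochondrial aconitase, which isomerises citrate (DN24761_c0_g7), had 1072, 895 and 858 CPM in females 1 to 3, against 1213, 1141 and 1286 CPM in males 1 to 3. No female reached a male, and the log2 difference of -0.37 ± 0.0997 did not pass by edgeR (adjusted p = 0.102) and passed by DESeq2 (adjusted p = 0.00957). Citrate synthase, the entry step (DN24747_c1_g11), averaged 467 ± 46.9 CPM in female heads and 560.0 ± 53.7 CPM in male heads, and male 3 lay below female 1. Mitochondrial malate dehydrogenase, which restores oxaloacetate (DN25755_c1_g5), averaged 396 ± 17.6 CPM in female heads and 466 ± 7.44 CPM in male heads without overlap (log2 difference -0.24 ± 0.073, edgeR, adjusted p = 0.164). Succinate dehydrogenase, which also serves as complex II of the respiratory chain, had all females below all males in CPM in each of its 4 well-counted subunits. Their log2 differences were -0.17 for the flavoprotein (DN25535_c1_g4), -0.17 for the iron-sulfur protein (DN25264_c0_g7), -0.23 for the large cytochrome b subunit (DN23835_c1_g1) and -0.18 for the small cytochrome b subunit (DN25521_c0_g7). None passed the adjusted test, the adjusted p running from 0.169 to 0.449 (edgeR). In the small subunit (DN25521_c0_g7) the gap was slight, female 2 standing at 82.8 CPM and male 1 at 82.9 CPM. In deposited TPM only the large cytochrome b subunit (DN23835_c1_g1) kept all females below all males. The flavoprotein, the iron-sulfur protein and the small subunit overlapped between the sexes in TPM, female 1 lying above male 1 in each. Further unigenes of the flavoprotein and of 2-oxoglutarate dehydrogenase E1, each with a mean under 5 CPM, share a cluster number with unigenes of the same name and may share reads, so their differences are uncertain. Among them was the 1 citrate cycle unigene higher in females at an unadjusted p under 0.05 (DN25230_c1_g2), with 4.93 ± 0.521 CPM in female heads and 3.38 ± 0.769 CPM in male heads.

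**Figure D2:**
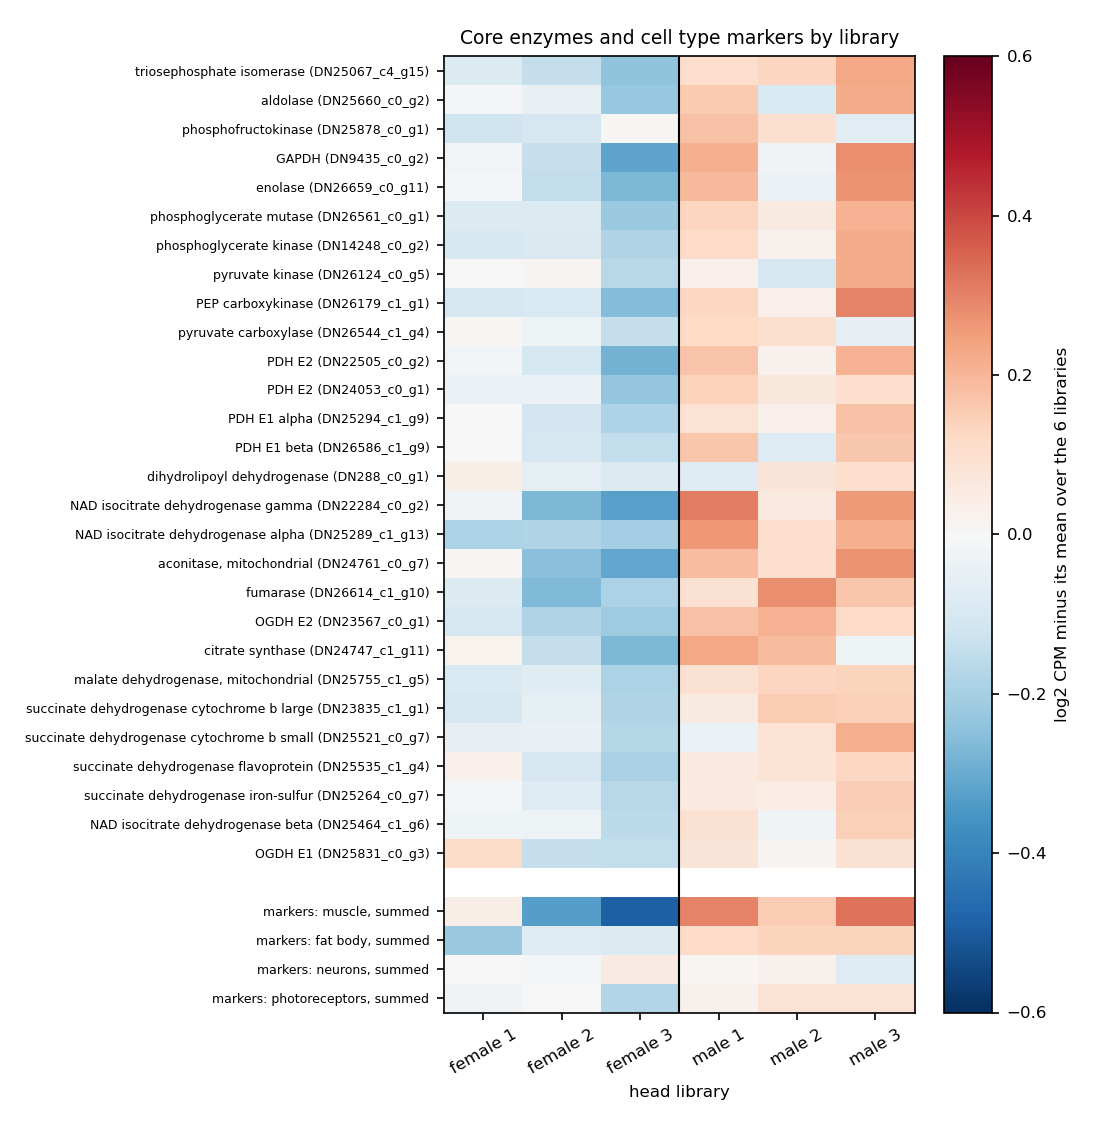
Log2 CPM of each core enzyme with a mean of at least 50 CPM, and of the summed markers of 4 cell types, minus the mean of its row over the 6 head libraries, with females 1 to 3 on the left and males 1 to 3 on the right. Female 3 is the lowest library in most rows, and also in the summed muscle markers (24467 CPM) and photoreceptor markers (9946 CPM). It is the highest library in the neuron markers (2657 CPM), and female 1 is lowest in the fat body markers (6268 CPM). Male 2 is the male nearest to the females in several glycolytic rows.

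Markers of some cell types also differed between these libraries. The 53 muscle marker unigenes, chosen by name (myosin, tropomyosin, troponin, titin and the like), summed to 35283, 27294 and 24467 CPM in females 1 to 3, against 42196, 38171 and 43061 CPM in males 1 to 3. Of the 40 tested, 6 were lower and none higher in females by edgeR, with 15 lower and 4 higher at an unadjusted p under 0.05 and 11 lower and none higher by DESeq2. The log2 difference lay below 0 in 24 of them and above 0 in 16, with a median of -0.19. For these and the markers below, the shares of all tested unigenes were 1.11% lower and 1.69% higher by edgeR. They were 5.71% and 6.29% at an unadjusted p under 0.05, and 1.96% and 2.51% by DESeq2. Fat body markers summed to 6698 ± 373 CPM in females and 7983 ± 55.2 CPM in males, so the sum was lower in females, while 6 of the 7 tested unigenes lay above 0, with a median log2 difference of 0.59. Of these 7, 2 were higher and 1 lower by edgeR and by DESeq2, and 3 higher and 1 lower at an unadjusted p under 0.05. Neuron markers summed to 2591 ± 57.9 CPM in females and 2546 ± 98.4 CPM in males, with 1 of 25 tested higher and none lower (by DESeq2 2 higher and none lower, and at an unadjusted p under 0.05 4 higher and none lower). Photoreceptor markers summed to 10756 ± 705 CPM in females and 11767 ± 296 CPM in males, with 1 of 6 tested higher and none lower by edgeR, 1 higher and 2 lower at an unadjusted p under 0.05, and 1 higher and none lower by DESeq2. None of the marker unigenes of these lists was at 0 over the libraries. The part of these markers in the levels of the glycolytic and citrate cycle enzymes was not tested. In whole heads, fewer cells of a type and less RNA per cell cannot be told apart.

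For 3 reactions the members include a mitochondrial enzyme and a cytosolic partner, and the side enzymes lay nearer to 0. These pairs were chosen after their values were seen, and each was set as a log2 ratio of CPM within a library. The ratio of mitochondrial to cytosolic aconitase (DN24761_c0_g7 over DN23863_c0_g2) was 2.01, 1.76 and 1.78 in females 1 to 3, against 2.40, 2.17 and 2.40 in males 1 to 3. All females lay below all males, with a difference of -0.48 (exact two-sided permutation test, p = 0.1, the smallest p that 3 against 3 libraries allow). The ratio of NAD isocitrate dehydrogenase alpha to NADP isocitrate dehydrogenase (DN25289_c1_g13 over DN26690_c2_g5) averaged -0.01 ± 0.036 in females and 0.35 ± 0.079 in males. Mitochondrial over cytosolic malate dehydrogenase (DN25755_c1_g5 over DN26766_c2_g1) averaged -0.44 ± 0.030 in females and -0.24 ± 0.086 in males. Both also separated the sexes completely, with the same exact p of 0.1. The cytosolic enzymes themselves overlapped between the sexes, with log2 differences of 0.10 ± 0.073 for aconitase (DN23863_c0_g2), -0.03 ± 0.077 for NADP isocitrate dehydrogenase (DN26690_c2_g5) and -0.04 ± 0.078 for malate dehydrogenase (DN26766_c2_g1).

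Among the side enzymes, 1 of 19 tested was higher and none lower by edgeR, with 2 higher and 3 lower at an unadjusted p under 0.05, and 2 higher and 2 lower by DESeq2. Of all tested unigenes, 1.69% were higher and 1.11% lower by edgeR, 6.29% and 5.71% unadjusted, and 2.51% and 1.96% by DESeq2. The higher one was annotated as NADP alcohol dehydrogenase, of the aldo-keto reductases, which reduce aldehydes to alcohols (DN25682_c0_g2). It had 113, 90.1 and 94.5 CPM in females 1 to 3, against 36.7, 39.1 and 38.9 CPM in males 1 to 3, a 2.59-fold difference. Even the lowest female stood far above the highest male, and the log2 difference was 1.37 ± 0.095 (edgeR, adjusted p = 1.42e-05), a call held in all 12 other settings tried, between 1.28 and 1.44 on the log2 scale. A second unigene with the same KEGG identifier (DN23305_c0_g2) had 101, 101 and 97.4 CPM in females 1 to 3, against 92.2, 95.3 and 105 CPM in males 1 to 3. Its sexes overlapped, and its difference was 0.03 ± 0.075 (edgeR, adjusted p = 0.925). The annotation fields disagree on which is which: the best hit calls the first an alcohol dehydrogenase and the second 1,5-anhydro-D-fructose reductase, and the Swiss-Prot names are the other way round. With both summed, the log2 difference was 0.55 ± 0.079 (edgeR, adjusted p = 0.00305).

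The aldehyde dehydrogenases, which oxidise aldehydes to acids, lay on both sides of 0. Aldehyde dehydrogenase X (DN26553_c0_g17) had 135, 115 and 106 CPM in females 1 to 3, against 175, 183 and 122 CPM in males 1 to 3, and male 3 lay below female 1. Its difference of -0.43 ± 0.15 did not pass (edgeR, adjusted p = 0.212), while without male 3 it was -0.59 (adjusted p = 0.0171). A mitochondrial aldehyde dehydrogenase named ALDH2 (DN25736_c0_g16) had 85.7, 73.5 and 74.1 CPM in females 1 to 3, against 90.3, 103 and 103 CPM in males 1 to 3. All females lay below all males, and the difference of -0.35 ± 0.089 did not pass (edgeR, adjusted p = 0.0792, unadjusted p = 0.00282). Another mitochondrial one (DN25747_c2_g4) overlapped between the sexes, at -0.05 ± 0.078. The dimeric NADP-preferring aldehyde dehydrogenase (DN25513_c0_g1) had 455, 429 and 434 CPM in females 1 to 3, against 387, 406 and 399 CPM in males 1 to 3, with all females above all males and a difference of 0.15 ± 0.071 (edgeR, adjusted p = 0.475). The family 7 member (DN26237_c0_g6) averaged 88.2 ± 5.40 CPM in female heads and 86.0 ± 10.4 CPM in male heads, and class-3 alcohol dehydrogenase, which clears formaldehyde bound to glutathione (DN24701_c0_g2), 128 ± 2.27 CPM in female heads and 139 ± 11.7 CPM in male heads. Both overlapped between the sexes.

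A multiple inositol polyphosphate phosphatase (DN24116_c0_g2), which removes phosphates from inositol phosphates, had 107, 100.4 and 101 CPM in females 1 to 3, against 70.6, 86.7 and 87.2 CPM in males 1 to 3. All females lay above all males, and the difference of 0.33 ± 0.091 did not pass by edgeR (adjusted p = 0.103) and passed by DESeq2 (adjusted p = 0.0488). A unigene of the same cluster and name (DN24116_c0_g3) lay below 0, at -0.19 ± 0.11, and reads may be split between the pair. ADP-dependent glucokinase, which phosphorylates glucose with ADP (DN23916_c0_g1), averaged 39.4 ± 0.932 CPM in female heads and 45.7 ± 3.83 CPM in male heads, with all females below all males (log2 difference -0.21 ± 0.086, edgeR, adjusted p = 0.346). Aldose 1-epimerase, which interconverts the ring forms of sugars (DN26440_c1_g2), was low, with 2.17 ± 0.329 CPM in female heads and 2.59 ± 0.347 CPM in male heads. The enzymes that supply cytosolic acetyl-CoA overlapped closely. ATP-citrate synthase, which cleaves citrate (DN25541_c3_g2), averaged 216 ± 8.18 CPM in female heads and 214 ± 7.09 CPM in male heads, and acetyl-CoA synthetase (DN26332_c1_g2) averaged 143 ± 2.23 CPM in female heads and 139.9 ± 4.73 CPM in male heads.

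Of the 5 other proteins, 1 was higher in females. Unigene DN25535_c1_g1 carries the KEGG identifier of the succinate dehydrogenase flavoprotein, but its best hit names a myb-like protein and its Swiss-Prot name a zinc finger protein, and it shares its cluster number with the flavoprotein unigenes. It had 175, 187 and 164 CPM in females 1 to 3, against 125, 127 and 145 CPM in males 1 to 3. All females lay above all males, with a log2 difference of 0.41 ± 0.085 (edgeR, adjusted p = 0.0296). By edgeR the call was lost without female 2 (adjusted p = 0.161), male 1 (0.134) or male 2 (0.182), and with a replicate block (0.0646). The flavoprotein unigene itself (DN25535_c1_g4) stood at -0.17.

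**Figure D3:**
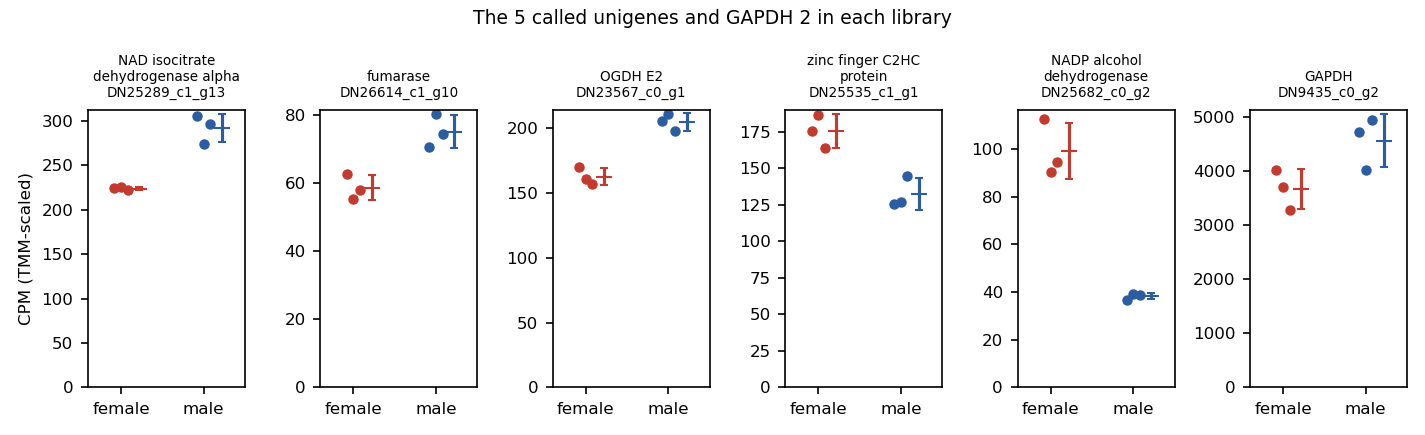
CPM of the 5 called members and of GAPDH 2 in each head library, females on the left and males on the right of each panel, with the mean and SD of the 3 libraries per sex as a bar beside the points; each vertical axis starts at 0. The 5 called members show no overlap between the sexes, the NADP alcohol dehydrogenase having 113, 90.1 and 94.5 CPM in females and 36.7, 39.1 and 38.9 CPM in males, and GAPDH 2 of female 1 lies level with that of male 2.

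Unigenes were also summed by enzyme, since an assembly can split a gene. Of 41 such units 3 were lower and 1 higher in females by edgeR, 35 lay below 0 with a median of -0.18, and 18 had all females below all males, against 2 with all females above. Of all single unigenes tested, 1.11% were lower and 1.69% higher, and 50.0% lay below 0. All females lay below all males in 8.5% of them and above in 8.77%. Neighbouring pathways, taken from the same annotation without the members, had medians nearer to 0. Oxidative phosphorylation had a median of -0.08 over 93 tested unigenes, with 67 below 0, 1 called higher and none lower by edgeR, 15 lower and 1 higher at an unadjusted p under 0.05, and 5 lower and 1 higher by DESeq2. The pentose phosphate pathway had a median of -0.06 over 20, with 14 below 0, 1 lower and none higher by edgeR, 5 lower and 1 higher at an unadjusted p under 0.05, and 1 lower and 1 higher by DESeq2. Other pyruvate metabolism had a median of -0.05 over 14, with 8 below 0, 2 lower and none higher by edgeR, 4 lower and 1 higher at an unadjusted p under 0.05, and 3 lower and 1 higher by DESeq2. Fructose and mannose metabolism had a median of 0.01 over 17, with none called by edgeR or DESeq2, and 2 lower and 1 higher at an unadjusted p under 0.05. For all tested unigenes the shares lower and higher were 1.11% and 1.69% by edgeR. They were 5.71% and 6.29% at an unadjusted p under 0.05, and 1.96% and 2.51% by DESeq2. All females lay below all males in 26 of the 93 of oxidative phosphorylation (28.0%) and 5 of the 20 of the pentose phosphate pathway (25%). In other pyruvate metabolism it was 3 of 14 (21.4%), and in fructose and mannose metabolism 4 of 17 (23.5%). Among the members this share was 35%, and among all tested unigenes 8.5%. The share below 0 was 72.0%, 70%, 57.1% and 41.2% in the same order, against 70% of the members. The differences between these pathways and the members were not tested.

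As reference gene candidates, the members were described by their coefficient of variation (CV) of CPM over the 6 libraries. For the 53 members of at least 10 CPM the median CV was 9.52%, against 9.15% for 8875 unigenes of that level. The CV of GAPDH 2 (DN9435_c0_g2) was 15.2%, within the members rank 47 from the least variable, and 81.0% of those unigenes had a lower CV. Without female 3 the CV was 12.3%. Its highest library, male 3, stood 1.51 times above its lowest, female 3. The CV was 10.3% within females and 10.6% within males, and 11.7% over the 6 libraries in TPM. The rank depended on the measure. By the mean SD of log2 ratios to the other members of at least 10 CPM (geNorm M), GAPDH 2 ranked 33 of 53 from the least variable. Acetyl-CoA synthetase (DN26332_c1_g2), the lowest by CV, ranked 21 by that measure.

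Least variable by CV were acetyl-CoA synthetase (DN26332_c1_g2) with a CV of 2.67%, ATP-citrate synthase (DN25541_c3_g2) with 3.21% and the second aldo-keto reductase (DN23305_c0_g2) with 4.70%. The first had 144, 145 and 141 CPM in females 1 to 3, against 134, 142 and 143 CPM in males 1 to 3, and 1.06% of the unigenes of at least 10 CPM varied less. Its CV in TPM was 5.50%. It shares its cluster number with shorter acetyl-CoA synthetase unigenes and with the second enolase unigene, so reads may be shared and its level is uncertain. In TPM the CV of ATP-citrate synthase (DN25541_c3_g2) was 11.98%, with 57.6, 74.3 and 78.5 TPM in females 1 to 3 and 62.8, 62.0 and 70.6 TPM in males 1 to 3, so the low spread was seen in CPM and not in TPM. Most variable were NADP alcohol dehydrogenase (DN25682_c0_g2) with 49.8%, fructose-1,6-bisphosphatase (DN26685_c1_g9) with 23.4% and aldehyde dehydrogenase X (DN26553_c0_g17) with 23.1%.

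The ratio of GAPDH 2 to enolase varied little over the libraries. Their log2 ratio of CPM within a library was 1.05, 1.06 and 1.01 in females 1 to 3, against 1.07, 1.07 and 1.06 in males 1 to 3. Its SD over the 6 libraries was 0.025, the smallest among the members of at least 10 CPM, followed by the acetyltransferase E2 of pyruvate dehydrogenase with 0.046 and phosphoenolpyruvate carboxykinase with 0.069. Enolase was picked for this low spread, so no test of the ratio between the sexes is given. The ratio is a description over 6 libraries, which share any error of scaling.

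**Figure D4:**
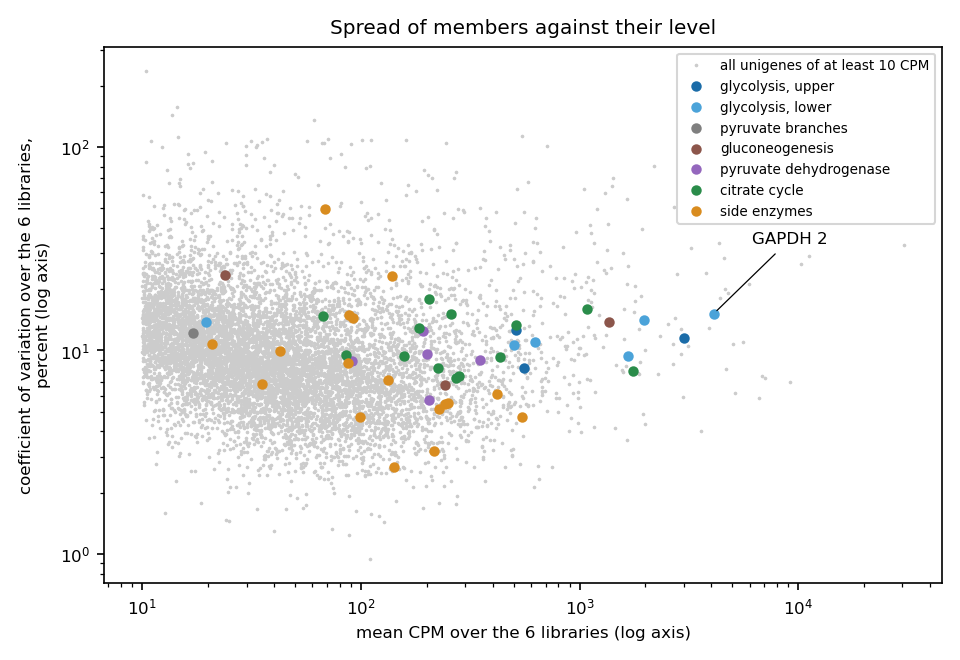
Coefficient of variation of CPM over the 6 head libraries (percent, log axis) against mean CPM (log axis), with members of at least 10 CPM coloured by role over all unigenes of that level in grey; other proteins are not drawn. GAPDH 2 lies at the right with a CV of 15.2%, the acetyl-CoA synthetase at the bottom with 2.67% and the NADP alcohol dehydrogenase at the top with 49.8%.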

How the data were processed

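Poly(A) RNA of heads was sequenced as paired ends, per the labels' protocols, and assembled with Trinity 2.4.0 into unigenes. Which program counted reads, how unigenes were annotated and which test the authors ran is not given in the sources used here. The deposited table holds expected counts that the authors estimated per unigene and library, which were rounded before testing (8.81% to 9.50% of values per library were not whole). It also holds TPM computed by the authors within each library, and the authors' log2 fold change, p-value and FDR, which were only quoted.

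Members and lists were chosen with earlier results of these data known. The counts were tested with edgeR 4.0.16 in R 4.3.3 (quasi-likelihood test of female minus male over all unigenes after TMM scaling and filterByExpr, which asked for counts of 10 and totals of 15; Benjamini-Hochberg adjustment, threshold 0.05). The SE is the log2 difference over the root of the F statistic. CPM come from library totals times TMM factors. Library totals were 17937390 to 19517887 counts, and the biological coefficient of variation was 14.5%. Within-library ratios were compared with an exact permutation test. Enzyme and role came from the KEGG identifier, checked by hand against the annotation. Unigenes may split or merge genes, and libraries were counted without a known strand.

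Named members are those past the threshold, the 3 of smallest p in each direction where fewer than 3 passed, the unigene of highest mean TPM of each enzyme, GAPDH, and the 3 of lowest and of highest CV among those of at least 10 CPM. Second enolase and phosphatase unigenes, 2 further aldehyde dehydrogenases and a 2-oxoglutarate dehydrogenase E1 unigene (DN25230_c1_g2) were named in addition, after their values were seen. Cell type markers and neighbouring pathways were set by words in the annotation.

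Other settings tried were the removal of each library, a replicate block, DESeq2 1.42.0 (its size factors, and its Wald test), no filter, a stricter filter of 50 counts in 3 libraries, insect hits only, unigenes summed by enzyme, core steps only, and, chosen after seeing the data, the deposited TPM and leaving out libraries for the within-library ratios. On simulated counts for 20414 unigenes of female minus male, edgeR found 90% of 100 unigenes given a log2 change of 1 and 100% of 100 given a change of 2, with 12 false calls (5.94% of its calls), and DESeq2 93% and 100%, with 22 (10.2%). Apart from the NADP alcohol dehydrogenase (DN25682_c0_g2), the changes among the tested members were smaller than the simulated ones. Python 3.11.15, pandas 2.3.3 and matplotlib 3.10.9 were used for tables and plots.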

Additional observations from a re-analysis of the deposited data

Results flagged for a closer look

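The same pathway fields also hold 132 unigenes whose best hit lies outside the insects and which the comparisons above leave out. They summed to 89335 counts over the 6 libraries, between 0.0742% and 0.0877% of the counts of a library. None of the 77 tested differed between the sexes by edgeR, with 1 lower and none higher at an unadjusted p under 0.05, and none by DESeq2. The organism these transcripts came from was not tested.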

How the results depend on the processing

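Leaving out each library in turn gave 357 to 688 unigenes called over all, 1 to 2 members higher, 0 to 6 lower, and a median log2 difference of the members between -0.18 and -0.11. The CV of GAPDH 2 ran from 12.3% to 16.9%. On deposited TPM it was 11.7%. The median was -0.19 over the core steps and -0.0512 on deposited TPM. DESeq2's Wald test called 9 members lower, and without a filter on low counts 1 was called lower. The labels do not say whether the replicate numbers pair the libraries. Same-numbered females and males had correlations of -0.02, -0.07 and -0.01 over unigenes, and differently numbered ones ran from -0.04 to 0.06. With 3 libraries per sex and values this close, the correlations cannot tell whether libraries were paired. With the replicate block 1 member was higher and 2 lower. The 2 lower were the alpha subunit (DN25289_c1_g13) and the gamma subunit (DN22284_c0_g2) of NAD isocitrate dehydrogenase, and the main fit did not call the gamma subunit. Other settings kept the counts of called members within 1.5 times of 2 higher and 3 lower.

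Over the 44 members named by the rule, 551 values were computed under alternatives: 513 kept their direction and side of the threshold, 20 fell out of the threshold, 11 came inside it and 7 changed sign. Those 7 all lay near 0 and came from leaving out a library. Over the libraries left out, the log2 difference ran from -0.0751 to 0.0183 for DN26766_c2_g1, from -0.0562 to 0.0379 for DN26690_c2_g5, from -0.00636 to 0.0952 for DN23305_c0_g2, from -0.0225 to 0.0344 for DN25541_c3_g2 and from -0.0222 to 0.146 for DN26237_c0_g6. The cause was not tested. With 3 libraries per sex, exact tests could not go below p = 0.1.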
